A study of Homo sapiens with 6 samples.

Results

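Long intergenic noncoding RNA genes (LINC symbols) and antisense RNA genes (symbols ending in -AS and a number) were followed in Cal27-shGRK2 cells and in Cal27 cells. A gene was included when its symbol in the deposited table had one of these forms and its mean level was at least 1 FPKM over 5 distinct libraries. FPKM is a level per transcript length and per mapped fragments. There were 325 such genes, 89 LINC genes and 236 antisense genes, of 681 rows with such symbols and of 18678 genes in the table. The genes were thus chosen by their symbol and by their mean FPKM, which is given only as a description. The rule did not use the contrast between the groups directly. The mean holds both groups, however, and 27 genes reached a mean of 1 FPKM in only 1 of them. Just inside the limit lay TNRC6C-AS1 at 1.01, CRYM-AS1 at 1.01 and LINC01311 at 1.02 FPKM, and just outside it lay YTHDF3-AS1 at 0.999, RNF139-AS1 at 0.993 and KCTD21-AS1 at 0.975 FPKM.

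Cal27-shGRK2 cells are Cal27 cells with a short hairpin RNA directed at GRK2, a kinase of activated G protein-coupled receptors, and Cal27 is an established human line of tongue squamous carcinoma. Both lines grew in medium with serum and were collected at 70% confluency, with no other agent named. Whether Cal27 held a control vector, and how many hairpins or clones Cal27-shGRK2 stands for, is not stated in the labels. Per group 3 libraries are named, but in Cal27-shGRK2 those numbered 0 and 1 were the same in each of the 18678 genes, a difference below sampling noise, so they count as 1 sample. That left 2 Cal27-shGRK2 libraries, called replicates 0 and 2 here, against 3 Cal27 libraries. No label ties the libraries to separate cultures. The p-values therefore cover only how these samples vary, which may be technical.

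GRK2, listed under its older symbol ADRBK1, stood at 17.3 and 16.6 FPKM in Cal27-shGRK2, against 55.3, 59.4 and 55.8 FPKM in Cal27. The difference was -1.69 ± 0.06 (SE) on the log2(FPKM + 1) scale, with limma's adjusted p = 3.8e-11. An exact two-sided permutation test over the 10 splits of 5 libraries gave p = 0.1, the smallest this design allows. All 13 markers fixed for squamous epithelium were in the table, and their summed level was 1610 to 1640 FPKM in Cal27-shGRK2, against 3540 to 3960 FPKM in Cal27, with KRT5 alone averaging 756 FPKM in Cal27-shGRK2 and 2190 FPKM in Cal27. Of the 13, 11 were lower in limma and 2 higher, EPCAM (log2 change 0.45) and CDH1 (0.57). Of the markers of other cells, 4 of 8 for fibroblasts summed to 4.38 to 4.46 against 4.35 to 4.71 FPKM, 2 of 7 for blood and endothelium to 7.53 to 7.54 against 4.27 to 4.76 FPKM, and 1 of 7 for neural cells and melanocytes to 0.572 to 0.764 against 0.367 to 0.534 FPKM, each Cal27-shGRK2 first. The blood and endothelium sum was mostly CDH5, which was higher in limma, at a mean of 6.91 FPKM in Cal27-shGRK2 and 3.68 FPKM in Cal27. The markers left out of these sums were absent from the deposited genes, so their levels are unknown. None of the markers present was at 0 throughout, and the part of these markers in the results below was not tested.

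Most LINC genes lie between protein-coding genes, and their RNAs are spliced and polyadenylated like messenger RNAs. Some act in the nucleus on nearby genes, some bind proteins or small RNAs in the cytoplasm, and some turned out to encode small proteins. An antisense gene is transcribed from the strand opposite to a coding gene, either across its exons or away from a start site that both share. Such pairs can move together through a shared promoter or against each other where one transcript interferes with the other, and their levels are usually low next to coding genes.

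Levels were low and broadly spread. At 1 to 2 FPKM lay 102 of the 325 genes, at 2 to 5 FPKM 119, at 5 to 10 FPKM 47, and at 10 FPKM or more 57, of which 15 reached 30 FPKM. At least 1 FPKM in every library was seen for 274 genes, and none was listed at 0 in any library. The mean reached 1 FPKM in only 1 of the groups for 27 genes, 9 through Cal27-shGRK2 and 18 through Cal27, and 8 of these 27 passed the test described next. A gene let in through the group where it is high had to differ, which holds for LINC01444, HOXB-AS3, IQCH-AS1 and B4GALT1-AS1 through Cal27-shGRK2 and for LINC01315, VIPR1-AS1, TP73-AS1 and FOXD2-AS1 through Cal27. The summed level of all 325 genes was 2371 and 2435 FPKM in Cal27-shGRK2, against 2564, 2567 and 2595 FPKM in Cal27. That was 0.402% and 0.396% of the table's total in Cal27-shGRK2, against 0.418%, 0.398% and 0.417% in Cal27, ranges that overlap. A current annotation entry (GENCODE release 29) was found for 322 genes, and 65 now carry another symbol, 29 of them ending in -DT for divergent transcript. The deposited symbols are used here with the current one added.

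Each gene was tested with limma on log2(FPKM + 1), over all 13377 genes of the table with a mean of at least 1 FPKM, and called changed at an adjusted p under 0.05. Of the 325 genes, 78 passed (24%), 35 higher and 43 lower in Cal27-shGRK2, while 247 did not. Over all genes tested, 29.6% passed, 15% higher and 14.6% lower. The share among the noncoding genes was thus below that of all genes, with a median difference of -0.05 on the log2 scale against -0.01 for all genes, and a median size of 0.15 against 0.14. In bulk RNA, a change in each cell and a change in the share of cells that express a gene cannot be told apart. LINC genes passed in 24 of 89 cases (27%), with 11 higher and 13 lower, and antisense genes in 54 of 236 (22.9%), with 24 higher and 30 lower. The calls differed by level. At 1 to 2 FPKM 16 of 102 noncoding genes passed (15.7%), against 23.6% of all genes at that level, and at 10 FPKM or more 19 of 57 passed (33.3%), against 30.8% of all genes. Of these 19, 5 were higher (8.77%) and 14 lower (24.6%) in Cal27-shGRK2, against 14.7% and 16.1% of all genes at that level. Of the 13 that passed at 5 to 10 FPKM, 3 were higher (6.38%) and 10 lower (21.3%), against 16.3% and 13.8% of all genes. At lower levels the balance was the other way. At 2 to 5 FPKM 16 were higher (13.4%) and 14 lower (11.8%), against 16% and 13.4% of all genes. At 1 to 2 FPKM 11 were higher (10.8%) and 5 lower (4.9%), against 13% and 10.6%. Groups did not overlap for 149 of the 325 genes (45.8%), against 53.3% of all genes tested. The authors' deposited table marks 31 of the 325 genes as significant, all 31 among the 78, where it marks 16.8% of all genes tested.

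Of the 325 genes, 7 passed with a change of at least 1 on the log2(FPKM + 1) scale. That was 2.15%, against 2.51% of all genes tested. Of these 7, 6 were LINC genes, 4 higher and 2 lower, and 1 was an antisense gene, FAM222A-AS1. The added 1 shrinks the changes of low genes, and the median level was 2.88 FPKM for the noncoding genes, against 11.4 FPKM for all. Genes outside the 7 can thus differ more than 2-fold in FPKM. LINC01315, for example, had authors' condition values of 0.567 FPKM in Cal27-shGRK2 and 1.41 FPKM in Cal27. Direction did not turn for any of the 78 genes under the 15 alternative settings. Calls were less stable than directions. Of the 78, 36 kept their call in every alternative that tested them, 18 LINC genes (8 higher, 10 lower) and 18 antisense genes (6 higher, 12 lower). Without Cal27-shGRK2 replicate 2, 46 genes passed, 15 of them higher, and without Cal27-shGRK2 replicate 0, 54 passed. Rescaling every library to a common total moved the median of all genes to 0.05 and turned the balance to 43 higher and 37 lower noncoding genes. Over all genes the share of calls that were higher was then 65.3%, against 50.7% in the main comparison.

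**Figure D1:**
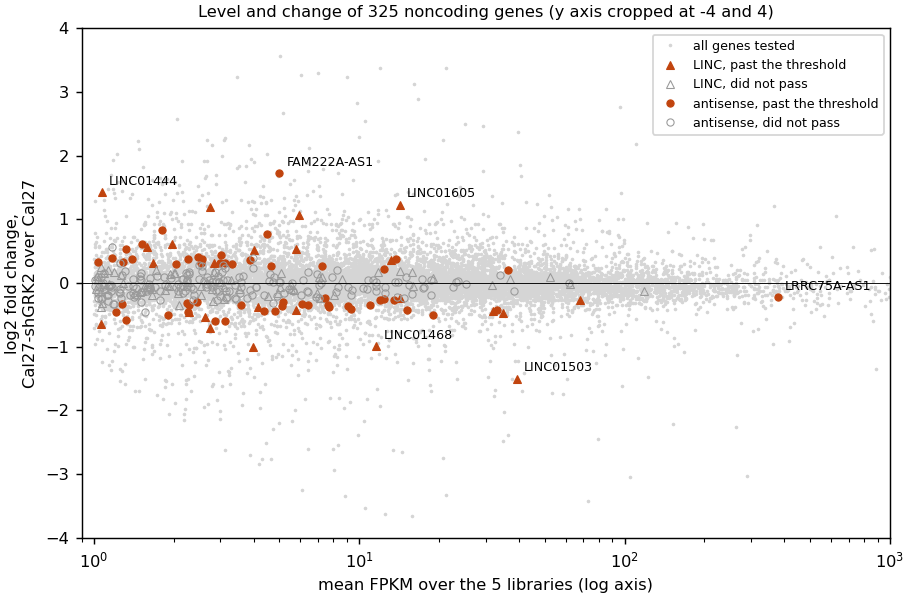
Mean level over the 5 libraries (x axis, FPKM, log axis) and log2 fold change of Cal27-shGRK2 over Cal27 (y axis, log2(FPKM + 1) scale) for all 13377 genes tested (grey dots), LINC genes (triangles) and antisense genes (circles), filled where limma's adjusted p was under 0.05. The 78 filled points lie at every level, and the 7 largest changes include LINC01503 at -1.50 and FAM222A-AS1 at 1.72.

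Among the genes that rose, FAM222A-AS1 had the largest log2 change. It stood at 8.34 and 10.3 FPKM in Cal27-shGRK2, against 1.96, 2.14 and 2.27 FPKM in Cal27, and the groups were far apart. Its mean was 4.38-fold higher in Cal27-shGRK2, with a log2 change of 1.72 ± 0.10 and limma's adjusted p = 5.0e-09. The gene (ENSG00000255650) lies on the minus strand of chromosome 12, at 109734166 to 109773508 (hg38, GENCODE 29), and overlaps FAM222A on the other strand with no shared exon bases.

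LINC01444 stood at 2.39 and 2.25 FPKM in Cal27-shGRK2, against 0.144, 0.312 and 0.245 FPKM in Cal27, where it was close to silent. The mean was 9.92-fold higher in Cal27-shGRK2, a ratio that rests on low values, and the log2 change was 1.43 ± 0.11 (limma's adjusted p = 1.4e-07). It passed the level rule only through Cal27-shGRK2. LINC01605 rose at a higher level, with 22.9 and 21.3 FPKM in Cal27-shGRK2, against 7.68, 9.09 and 9.98 FPKM in Cal27 (log2 change 1.23 ± 0.09, limma's adjusted p = 2.1e-07). LINC00452 stood at 4.33 and 4.97 FPKM in Cal27-shGRK2, against 1.39, 1.55 and 1.48 FPKM in Cal27 (log2 change 1.19 ± 0.10, limma's adjusted p = 2.3e-07). LINC00973 stood at 8.44 and 9.84 FPKM in Cal27-shGRK2, against 3.44, 3.93 and 4.08 FPKM in Cal27 (log2 change 1.07 ± 0.09, limma's adjusted p = 4.2e-07). In each of these genes, which were picked as the largest rises, every Cal27-shGRK2 library lay above every Cal27 library.

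The antisense genes of the COUP transcription factors, which are orphan nuclear receptors, both rose. NR2F2-AS1 stood at 2.71 and 2.95 FPKM in Cal27-shGRK2, against 1.25, 1.12 and 1.03 FPKM in Cal27 (log2 change 0.84 ± 0.10, limma's adjusted p = 1.5e-05). NR2F1-AS1 stood at 6.36 and 6.26 FPKM in Cal27-shGRK2, against 3.45, 2.80 and 3.70 FPKM in Cal27 (log2 change 0.77 ± 0.10, limma's adjusted p = 2.9e-05). The remaining genes of the 12 largest rises had log2 changes of 0.53 to 0.62. They were LINC01296 (now DUXAP10) at 0.62, SLCO4A1-AS1 at 0.61, LINC00704 (now MANCR, named for its link to mitosis) at 0.57, HOXB-AS3 at 0.54 and LINC00460 at 0.53, the last an RNA much studied in head and neck squamous carcinoma. LINC00460 stood at 6.50 and 8.17 FPKM in Cal27-shGRK2, against 4.48, 4.67 and 5.12 FPKM in Cal27. HOXB-AS3 lost its call without Cal27-shGRK2 replicate 2 (limma's adjusted p = 0.091).

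LINC01503 fell most. It stood at 17.0 and 19.6 FPKM in Cal27-shGRK2, against 50.5, 57.6 and 51.9 FPKM in Cal27, so its mean was 2.92-fold higher in Cal27 (log2 change -1.50 ± 0.08, limma's adjusted p = 1.4e-09). The gene (ENSG00000233901) lies on the plus strand of chromosome 9, at 129332300 to 129359538 (hg38, GENCODE 29). LINC01503 is known from squamous cell carcinomas, where its enhancer is bound by TP63, the transcription factor of basal squamous cells. TP63 itself stood at 10.5 and 10.5 FPKM in Cal27-shGRK2, against 32.0, 32.1 and 31.4 FPKM in Cal27, and its part in the level of LINC01503 was not tested.

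LINC01468, now LNCAROD, is known for activating DKK1, which encodes a secreted Wnt antagonist. It stood at 7.01 and 6.76 FPKM in Cal27-shGRK2, against 14.8, 14.2 and 15.1 FPKM in Cal27 (log2 change -0.99 ± 0.07, limma's adjusted p = 6.0e-08). LINC01508 stood at 1.76 and 2.48 FPKM in Cal27-shGRK2, against 4.91, 5.57 and 5.13 FPKM in Cal27 (log2 change -1 ± 0.11, limma's adjusted p = 3.7e-06). In both genes the groups were well apart, as in the other falls among the 12 largest, which ran between -0.47 and -0.70 on the log2 scale. Those were LINC01589 at -0.70, LINC01315 at -0.65 (let in by its Cal27 level), ITGA9-AS1 and DGUOK-AS1 at -0.59 each, VIPR1-AS1 at -0.58, LINC01116 at -0.54, CERS6-AS1 and SLC25A25-AS1 at -0.50 each, and LINC00958 at -0.47. LINC00958, also called BLACAT2, was the most abundant of these genes, with 28.5 and 27.4 FPKM in Cal27-shGRK2, against 36.7, 40.3 and 40.3 FPKM in Cal27. CERS6-AS1 stood at 15.9 and 14 FPKM in Cal27-shGRK2, against 24, 19.8 and 21 FPKM in Cal27.

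**Figure D2:**
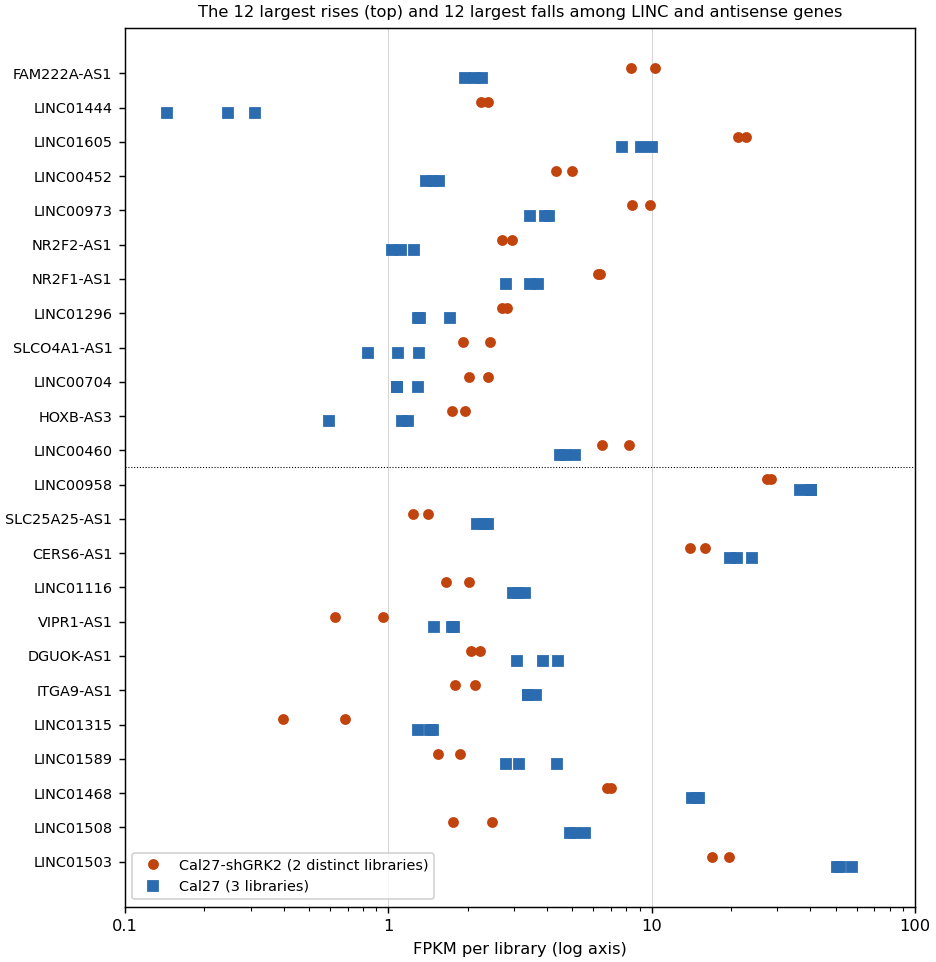
FPKM per library (x axis, log axis) of the 12 largest rises (above the dotted line) and the 12 largest falls (below it) among the genes past the threshold, with Cal27-shGRK2 as circles in the upper row and Cal27 as squares in the lower row of each gene. In none of the 24 genes do the groups overlap, but the genes were picked for their large changes in these libraries. Groups also do not overlap in 53.3% of all genes tested. LINC01444 is the gene lowest in Cal27, at 0.144 to 0.312 FPKM.

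Of the 12 most abundant noncoding genes, LINC01503 and LINC00958 are among the largest falls above, and the other 10 had log2 changes between -0.27 and 0.20. LRRC75A-AS1, now SNHG29 and a host of small nucleolar RNAs, was the highest, at 339 and 346 FPKM in Cal27-shGRK2, against 411, 389 and 399 FPKM in Cal27. Its log2 change was -0.22 ± 0.06 (limma's adjusted p = 0.0087), and the call was lost without Cal27-shGRK2 replicate 0 (limma's adjusted p = 0.069). LINC00152 (now CYTOR), a cytoplasmic RNA linked to the cytoskeleton, stood at 112 and 112 FPKM in Cal27-shGRK2, against 121, 120 and 127 FPKM in Cal27, and did not pass (log2 change -0.13, limma's adjusted p = 0.11). LINC00657 (now NORAD), which binds the Pumilio RNA-binding proteins, stood at 54.4 and 54.5 FPKM in Cal27-shGRK2, against 51.5, 48.6 and 52.5 FPKM in Cal27 (log2 change 0.10, not passing). MIF-AS1, OIP5-AS1 (known as Cyrano), LINC01578 (now CHASERR) and PRC1-AS1 also did not pass, with log2 changes of 0.00, -0.13, 0.06 and 0.13. FGD5-AS1 passed at 0.20 with 38.3 and 40.4 FPKM in Cal27-shGRK2, against 31.9, 35.8 and 34.9 FPKM in Cal27, but lost the call in 4 of the 5 fits that left out a library.

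Of the 325 genes, 9 are annotated as protein-coding in GENCODE 29, and of these 0 rose, 4 fell and 5 did not pass in limma (1 rose at an unadjusted p under 0.05). Over all genes tested 15% rose and 14.6% fell, and 9 genes are too few to compare with these shares. The 4 that fell were all small-protein genes. LINC00998 (now SMIM30, a small membrane protein) stood at 26.4 and 25.8 FPKM in Cal27-shGRK2, against 37.5, 31.7 and 38.3 FPKM in Cal27 (log2 change -0.44). LINC00493 (now SMIM26, a small mitochondrial protein) stood at 59.2 and 61.3 FPKM in Cal27-shGRK2, against 72.4, 74.4 and 71.3 FPKM in Cal27 (log2 change -0.27). In both, the lowest Cal27 library lay above the highest Cal27-shGRK2 library. NCBP2-AS2 fell by 0.42 on the log2 scale, and LINC01420 (now NBDY, a polypeptide of P-bodies) by 0.24. The call of LINC01420 was lost in 3 of the 5 fits that left out a library. LINC00116 (now MTLN, mitoregulin, of mitochondria) did not pass, with 60.4 and 63.6 FPKM in Cal27-shGRK2, against 63.8, 62.6 and 61.8 FPKM in Cal27, and LINC00094 (now BRD3OS) did not pass at 0.18 (limma's adjusted p = 0.11).

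Antisense genes were then set beside the sense gene of the same name. Of 236 antisense genes, 215 had that gene in the table, and for 198 it was also tested, which gave 198 pairs over 194 sense genes. Of the 194 sense genes 61 passed, and 62 of the 198 pairs (31.3%) held a sense gene that passed, near the 29.6% of all genes. Both genes passed in 20 pairs. In 10 both were higher and in 8 both were lower in Cal27-shGRK2, in 2 the antisense gene was lower and the sense gene higher, and in 0 the reverse (0 also where both had an unadjusted p under 0.05 in limma). The antisense gene alone passed in 23 pairs, the sense gene alone in 42, and neither in 113. The authors' deposited comparison marks fewer antisense genes as significant, 14 of all 236 (5.93%). Among the antisense genes of the 20 pairs it marks FAM222A-AS1 and SLC25A25-AS1, and none of the others. For NR2F2-AS1 the authors' q-value was 0.12, and for SLCO4A1-AS1 it was 0.49. Across the 198 pairs the log2 changes had a Pearson r of 0.40 and a Spearman rho of 0.44, values given as a description, since the pairs share the same 5 libraries and may share reads. The number of sense genes that passed was 39 without Cal27-shGRK2 replicate 0 and 37 without Cal27-shGRK2 replicate 2.

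The library kit kept strand, but no source used here gives the strand setting of the counting, and without strand the reads of overlapping genes cannot be told apart. By GENCODE 29, exons of the antisense and sense gene overlapped in 147 pairs, of which 16 had both genes called (6 both higher, 8 both lower, 2 opposite; r = 0.48). In 34 pairs the genes lay head to head without overlap, with starts at most 1000 bases apart, and both were called in 2, both higher (r = 0.47). In 14 pairs the genes overlapped without shared exon bases, and both were called in 2, both higher (r = 0.18). Pairs with overlapping exons and pairs lying head to head thus had correlations of like size, and the few pairs that overlap without shared exon bases a lower one. In the 13 exon-overlapping pairs with a sense gene of at least 100 FPKM, the antisense level was 0.205% to 31.7% of the sense level, with a median of 2.58%. The lowest was TPT1-AS1, at a mean of 2.28 FPKM beside 1110 FPKM for TPT1, and the highest was PRC1-AS1, at 33.9 beside 107 FPKM for PRC1. TPT1-AS1 fell by 0.35 on the log2 scale while TPT1, an abundant growth-related protein gene, differed by 0.02 and did not pass. The call of TPT1-AS1 was lost in 3 of the 5 fits that left out a library. The antisense level was above the sense level in 20 of the 198 pairs.

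**Figure D3:**
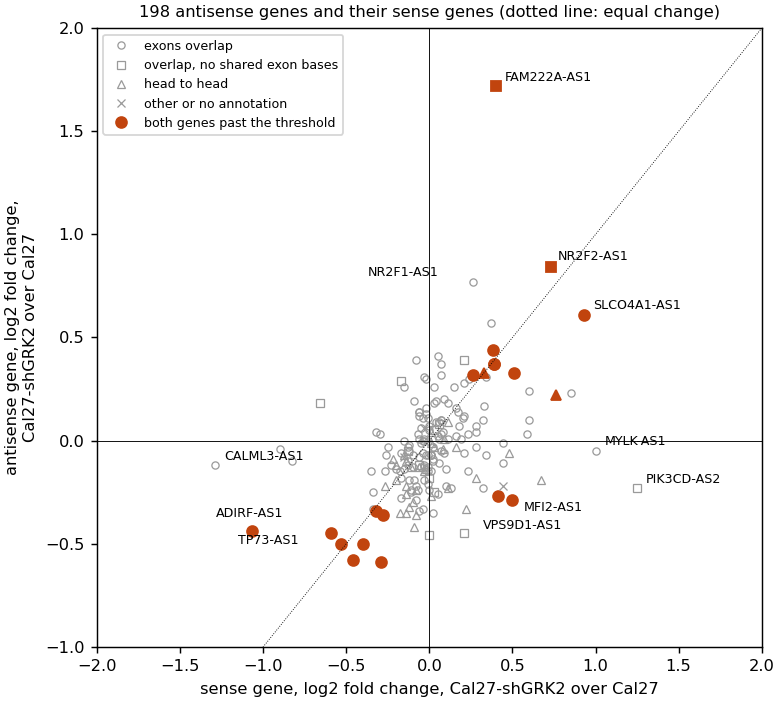
Log2 fold change (log2(FPKM + 1) scale, Cal27-shGRK2 over Cal27) of 198 sense genes (x axis) and of the antisense gene of the same name (y axis), with symbols for how the genes lie to each other and filled symbols for the 20 pairs in which both passed. Filled pairs lie on the same side of 0 for both genes in 18 pairs, and VPS9D1-AS1 and MFI2-AS1 are the 2 that do not.

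Among pairs in which both rose, the sizes of change on the log2(FPKM + 1) scale were near each other in most and far apart in some. That scale shrinks the changes of low genes, so changes that are near each other on it can differ more as ratios of FPKM. NR2F2, which lies on the other strand from NR2F2-AS1 with no shared exon bases, stood at 41.2 and 42.5 FPKM in Cal27-shGRK2, against 24.7, 24.7 and 25.3 FPKM in Cal27 (log2 change 0.73 ± 0.06, limma's adjusted p = 3.1e-07). On that scale the antisense change exceeded it by 0.12 ± 0.07 (SE). Without the added 1 the gap was wider. The authors' log2 change of NR2F2-AS1 was 1.35, from condition values of 2.88 FPKM in Cal27-shGRK2 and 1.13 FPKM in Cal27. The mean of NR2F2 was 1.68-fold higher in Cal27-shGRK2. FAM222A stood at 3.10 and 3.71 FPKM in Cal27-shGRK2, against 2.16, 2.50 and 2.36 FPKM in Cal27, a log2 change of 0.40 that its antisense gene exceeded by 1.32 ± 0.05. SLCO4A1, an organic anion transporter, stood at 37.8 and 41.3 FPKM in Cal27-shGRK2, against 18.5, 22.4 and 20.0 FPKM in Cal27 (log2 change 0.93), and SLCO4A1-AS1 at 2.42 and 1.92 FPKM in Cal27-shGRK2, against 1.31, 0.836 and 1.09 FPKM in Cal27 (0.61). CBR3-AS1 and CBR3 (0.44 and 0.38), ANO1-AS1 and ANO1 (0.37 and 0.39), SERTAD4-AS1 and SERTAD4 (0.37 and 0.39), STEAP3-AS1 and STEAP3 (0.32 and 0.26) and GMDS-AS1 and GMDS (0.33 and 0.33) differed from their partner by 0.07 or less. B4GALT1-AS1 rose by 0.33 and B4GALT1, a galactosyltransferase, by 0.51. Of these antisense genes, those of SERTAD4, STEAP3, GMDS and B4GALT1 lost their call in 1 to 4 of the 5 fits that left out a library, as did the sense genes FAM222A, ANO1 and GMDS in 1 and STEAP3 in 2.

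The strongest shared fall was at ADIRF, a small gene of adipogenesis regulation. ADIRF stood at 48.0 and 43.2 FPKM in Cal27-shGRK2, against 96.1, 96.1 and 97.9 FPKM in Cal27 (log2 change -1.07), and ADIRF-AS1 at 3.68 and 3.89 FPKM in Cal27-shGRK2, against 5.64, 5.23 and 5.64 FPKM in Cal27 (-0.44). The antisense gene thus fell less, by 0.63 ± 0.09. TP73, a relative of the p53 gene, fell with its antisense gene (log2 changes of -0.59 and, for TP73-AS1, -0.45), although TP73-AS1 met the level rule only through Cal27, at 0.802 and 0.825 FPKM in Cal27-shGRK2, against 1.61, 1.32 and 1.52 FPKM in Cal27. Shared falls were also seen at CERS6, a ceramide synthase (antisense -0.50, sense -0.40), SLC25A25, a mitochondrial carrier (-0.50 and -0.53), VIPR1, the receptor of vasoactive intestinal peptide (-0.58 and -0.46), DGUOK, a mitochondrial nucleoside kinase (-0.59 and -0.29), KTN1 (-0.34 and -0.32) and ZBED5 (-0.36 and -0.28). In the last 2 the antisense gene, and at DGUOK and ZBED5 the sense gene, lost its call in 1 of the 5 fits that left out a library.

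Opposite directions were rare and rested on small antisense changes. MFI2, which encodes melanotransferrin, stood at 36.0 and 36.1 FPKM in Cal27-shGRK2, against 25.4, 25.0 and 25.1 FPKM in Cal27 (log2 change 0.50), and MFI2-AS1 at 4.40 and 4.47 FPKM in Cal27-shGRK2, against 5.11, 5.82 and 6 FPKM in Cal27 (-0.29). VPS9D1 rose by 0.41 while VPS9D1-AS1 fell by 0.27, with 10.8 and 10.4 FPKM in Cal27-shGRK2, against 12.8, 14.7 and 11.6 FPKM in Cal27. The difference in log2 change, antisense minus sense, was -0.79 ± 0.09 at MFI2 and -0.69 ± 0.17 at VPS9D1. Exons overlap in both pairs, and leaving out a library ended the antisense call in 4 of 5 fits for MFI2-AS1 and in 3 of 5 for VPS9D1-AS1, and the call of VPS9D1 in 1 of 5.

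The largest changes of each strand were set beside the other strand. The sense genes with changes of at least 0.8 on the log2 scale, chosen after their values were seen, were CYP1B1, ADIRF, HLA-F, CALML3, SLCO4A1, SEMA3F, MYLK and PIK3CD, and the antisense genes of ADIRF and SLCO4A1 passed, 2 of 8, where 22.9% of all antisense genes passed. The antisense genes with changes of at least 0.8 and a tested sense gene were FAM222A-AS1 and NR2F2-AS1. Both their sense genes passed, where the sense gene passed in 31.3% of all pairs, and 2 genes are too few to compare with that share. Just under this limit lay NR2F1-AS1 at 0.77, whose sense gene did not pass. PIK3CD, a catalytic subunit of phosphoinositide 3-kinase, stood at 7.71 and 7.02 FPKM in Cal27-shGRK2, against 2.57, 2.60 and 2.41 FPKM in Cal27 (log2 change 1.25), while PIK3CD-AS2 differed by -0.23 and did not pass. MYLK, myosin light chain kinase, rose by 1 with MYLK-AS1 at -0.05, and CALML3, a calmodulin-like protein of stratified epithelium, fell by 1.29 with CALML3-AS1 at -0.12. Among antisense genes that passed without their sense gene, NR2F1-AS1 rose by 0.77 while NR2F1 stood at 1.75 and 1.53 FPKM in Cal27-shGRK2, against 1.07, 1.21 and 1.35 FPKM in Cal27, and did not pass (0.26, limma's adjusted p = 0.093). CDKN2B-AS1, known as ANRIL and transcribed across the tumour suppressor locus of CDKN2A and CDKN2B, stood at 1.65 and 1.66 FPKM in Cal27-shGRK2, against 2.90, 2.64 and 2.48 FPKM in Cal27 (-0.46, limma's adjusted p = 0.0022). CDKN2B stood at 5.57 and 5.69 FPKM in Cal27-shGRK2, against 5.08, 5.90 and 5.90 FPKM in Cal27, groups that overlap. NCBP2-AS2 fell by 0.42 with NCBP2 at -0.09, FUT8-AS1 rose by 0.41 with FUT8 at 0.05, IQCH-AS1 by 0.39 with IQCH at -0.08, and NAV2-AS2 by 0.37 with NAV2 at 0.07. The calls of FUT8-AS1, IQCH-AS1 and NAV2-AS2 were lost in 2, 3 and 4 of the 5 fits that left out a library.

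Some pairs have overlapping promoter windows. RefSeq promoter windows (250 bases before to 50 after the start, 300 bases, assembly GRCh38.p14) were found for 250 of the 325 genes, 57 of them among the 78 that passed. In 72 pairs of 71 noncoding genes, the window overlapped that of a tested gene on the other strand, with the starts a median of 147 bases apart and pointing away from each other. The noncoding gene passed in 12 pairs, the partner in 15, and both in 4, and in those 4 both moved in the same direction. For comparison, 24% of the 325 noncoding genes and 29.6% of all genes tested passed, so calls were not more frequent in these pairs. LINC00863 and NUTM2A-AS1, neither of which passed, are counted from each side. Across the 72 pairs the log2 changes had r = 0.26 and rho = 0.30, as a description over pairs that share their libraries. The 4 windows are shown because they hold the only promoters of this kind at which both strands changed. Each is written 5′ to 3′ on the strand of the noncoding gene, with the bases between the RefSeq starts in capitals. RefSeq starts can differ from those of GENCODE, by which the exons of the ZBED5 and KTN1 pairs overlap. They are the windows of GAS6-AS2 (chr13:113863927-113864226, plus strand, 100 bases between starts), GMDS-AS1 (chr6:2245503-2245802, plus strand, 147 bases), ZBED5-AS1 (chr11:10857967-10858266, plus strand, 163 bases) and KTN1-AS1 (chr14:55580043-55580342, minus strand, 114 bases).
GAS6-AS2: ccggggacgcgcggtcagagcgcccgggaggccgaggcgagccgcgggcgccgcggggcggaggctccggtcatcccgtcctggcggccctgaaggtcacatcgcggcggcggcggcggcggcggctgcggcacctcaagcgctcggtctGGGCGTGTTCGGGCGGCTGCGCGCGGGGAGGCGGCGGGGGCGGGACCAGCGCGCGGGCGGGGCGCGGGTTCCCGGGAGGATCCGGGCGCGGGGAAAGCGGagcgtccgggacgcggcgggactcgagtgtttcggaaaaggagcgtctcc
GMDS-AS1: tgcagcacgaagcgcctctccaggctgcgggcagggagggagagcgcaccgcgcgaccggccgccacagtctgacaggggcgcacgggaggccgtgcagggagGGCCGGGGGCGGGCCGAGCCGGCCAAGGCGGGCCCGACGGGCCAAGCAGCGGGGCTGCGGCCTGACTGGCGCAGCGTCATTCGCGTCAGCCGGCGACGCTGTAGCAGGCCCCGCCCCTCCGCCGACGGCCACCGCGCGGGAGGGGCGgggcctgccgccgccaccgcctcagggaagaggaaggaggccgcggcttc
ZBED5-AS1: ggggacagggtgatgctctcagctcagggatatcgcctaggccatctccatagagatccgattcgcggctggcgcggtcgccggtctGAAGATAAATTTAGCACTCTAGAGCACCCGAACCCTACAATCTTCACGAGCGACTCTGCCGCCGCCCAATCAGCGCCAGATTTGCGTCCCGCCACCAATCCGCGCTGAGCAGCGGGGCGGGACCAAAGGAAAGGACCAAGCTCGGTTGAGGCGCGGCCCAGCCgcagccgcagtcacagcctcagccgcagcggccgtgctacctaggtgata
KTN1-AS1: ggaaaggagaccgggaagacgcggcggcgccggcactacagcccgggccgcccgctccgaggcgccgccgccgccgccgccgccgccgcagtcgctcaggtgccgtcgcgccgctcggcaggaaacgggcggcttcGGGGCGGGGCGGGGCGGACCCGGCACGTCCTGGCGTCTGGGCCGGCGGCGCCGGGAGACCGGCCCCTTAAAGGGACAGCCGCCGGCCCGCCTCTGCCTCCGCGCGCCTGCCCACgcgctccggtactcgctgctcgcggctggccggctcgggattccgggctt
At GAS6 and GMDS both strands rose, the antisense genes by 0.22 and 0.33 with calls that leaving out a library ended in 3 and 4 of 5 fits, and at ZBED5 and KTN1 both fell. The GC share of these windows was 79.7%, 78.3%, 62.7% and 80%, against a median of 63.8% over the 250 noncoding windows and 58.7% over all 35116 windows in the RefSeq table. All 4 hold GGGCGG on at least 1 strand, a motif found in 54.4% of the 250 windows and in 45% of all windows.

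Of the other large changes, the window of NR2F2-AS1 (chr15:96327069-96327368, minus strand, GRCh38.p14) is shown because both strands rose at a locus without shared exon bases, with its 1 match to CCAAT, on the other strand, in capitals.
NR2F2-AS1: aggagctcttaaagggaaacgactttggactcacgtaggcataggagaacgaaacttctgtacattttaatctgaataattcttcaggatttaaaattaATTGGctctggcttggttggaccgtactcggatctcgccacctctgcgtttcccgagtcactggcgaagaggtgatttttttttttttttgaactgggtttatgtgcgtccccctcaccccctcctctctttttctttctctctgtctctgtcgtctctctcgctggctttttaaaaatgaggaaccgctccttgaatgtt
The window of FAM222A-AS1 held none of the 7 motifs searched, which were the cyclic AMP response element TGACGTCA, the AP-1 site TGANTCA, the TEAD site GGAATG, the interferon response element, the Sp1 site GGGCGG, the E-box CACCTG and the CCAAT box. Each was counted on both strands, and matches of different motifs could overlap. The AP-1 site was in 20% of the 25 windows of genes that rose and in 6.25% of the 32 windows of genes that fell, beside 8.8% of the 250 and 7.71% of all windows. For the other motifs, rises first, the shares were 40% and 59.4% for GGGCGG, 28% and 34.4% for CCAAT, and 20% and 18.8% for CACCTG. They were 12% and 15.6% for GGAATG, 0% and 3.12% for the interferon response element, and 0% and 0% for TGACGTCA. These differences rest on few windows and were not tested. These are matches of letters in a window and not measured binding.

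LINC genes have no sense partner, so each was set beside the tested coding gene with the nearest start. Over the 89 LINC genes the median distance between starts was 66389 bases, and 24 LINC genes and 28 of the neighbours (31.5%) in these 89 pairs passed, the neighbours near the 29.6% of all genes. Both passed in 13 pairs, in 11 of them in the same direction, with r = 0.41 and rho = 0.28 over the 89 pairs as a description. Without Cal27-shGRK2 replicate 0, 6 pairs passed in the same direction. Within 100000 bases there were 49 pairs, in which 10 LINC genes and 12 neighbours passed. Both genes were called in 5 of them, all in the same direction. GAS6 is the neighbour of both LINC00452 and LINC00565, so these counts hold it more than once. The calls of LINC00565, LINC00941, CAPRIN2 and TCF20, all within these 5 pairs, were each lost in a fit that left out a Cal27 library.

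LINC01605 lies 141568 bases from ZNF703, a zinc finger repressor, which averaged 22.1 FPKM in Cal27-shGRK2 and 7.89 FPKM in Cal27, a log2 change of 1.38 beside 1.23 for the LINC gene. LINC00973 lies 79369 bases from DCBLD2, a transmembrane receptor gene, which averaged 171 FPKM in Cal27-shGRK2 and 87.9 FPKM in Cal27 (0.95 beside 1.07). On the log2(FPKM + 1) scale both neighbours changed about as much as the LINC gene. That scale shrinks the changes of low genes, and the authors' log2 change was 1.30 for LINC01605 and 1.24 for LINC00973. LINC01468 lies 441113 bases from DKK1, which averaged 159 FPKM in Cal27-shGRK2 and 210 FPKM in Cal27, so it fell by 0.40 on the log2 scale where LINC01468 fell by 0.99. LINC01508 lies 368282 bases from SYK, a tyrosine kinase, which fell by 0.42, and LINC01503 lies 154038 bases from IER5L, which fell by 0.32, a call lost without Cal27-shGRK2 replicate 0 (limma's adjusted p = 0.091). In these 3 pairs the coding gene fell less than the LINC gene. Against this direction, LINC00460 rose by 0.53 while EFNB2, an ephrin ligand 161185 bases away, fell by 0.40, and LINC00869 fell by 0.37 while NBPF19, of a multicopy gene family, rose by 0.33, both calls lost in 3 of the 5 fits that left out a library. The coding gene nearest to LINC01444, ZNF519, differed by -0.10 and did not pass.

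**Figure D4:**
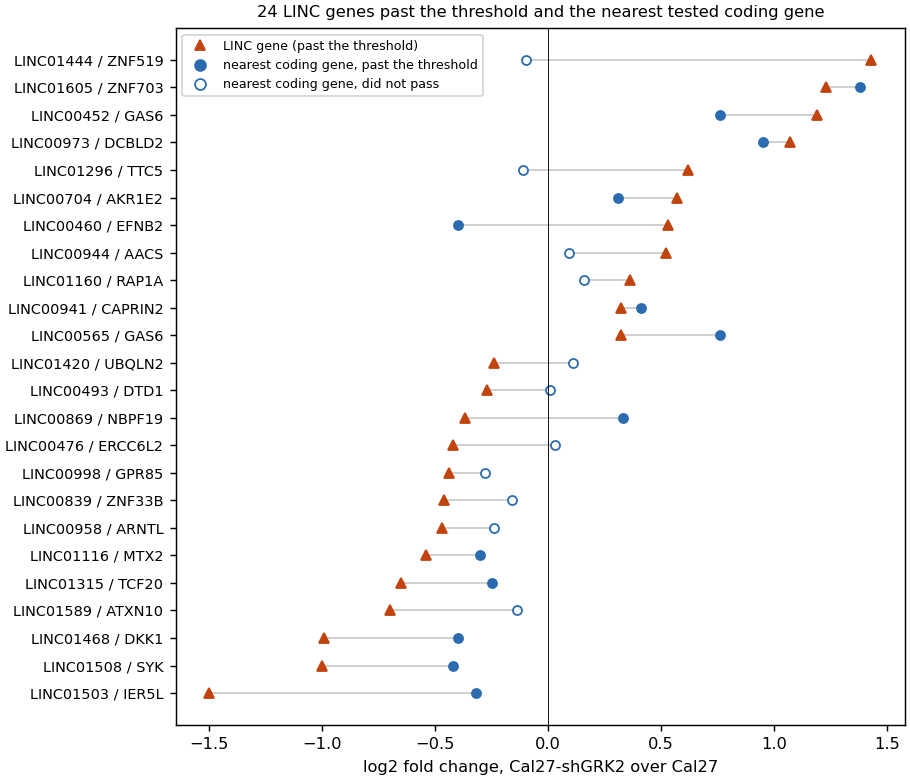
Log2 fold change (x axis, log2(FPKM + 1) scale, Cal27-shGRK2 over Cal27) of the 24 LINC genes past the threshold (triangles) and of the tested coding gene with the nearest start (circles, filled where it passed), joined by a line per pair. Of the 13 filled circles, 11 lie on the same side of 0 as their LINC gene, and the neighbours of LINC00460 and LINC00869 do not.

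At the end of chromosome 13, a run of tested neighbours rose, a group picked out after its values were seen. In chromosome order these were TMEM255B (log2 change 0.55), GAS6 (0.76), GAS6-AS2 (0.22), LINC00452 (1.19), LINC00565 (0.32) and RASA3 (0.65), from 113759240 to 114132611 (hg38). GAS6, the ligand of the AXL family of receptor kinases, stood at 396 and 395 FPKM in Cal27-shGRK2, against 228, 243 and 230 FPKM in Cal27. RASA3, a GTPase-activating protein of Ras and Rap, stood at 9.35 and 9.34 FPKM in Cal27-shGRK2, against 5.31, 6.03 and 5.44 FPKM in Cal27. LINC00452 had the largest change of the run, between genes that changed less. GAS6-AS2 stood at 12.9 and 14.4 FPKM in Cal27-shGRK2, against 11.7, 11.9 and 11.3 FPKM in Cal27, 0.54 ± 0.06 less than GAS6 on the log2 scale. Farther along, CDC16 (0.15), UPF3A (-0.07) and CHAMP1 (0.20) did not pass. The calls of GAS6-AS2 and LINC00565 were lost in 3 and 4 of the 5 fits that left out a library, and GAS6-AS1 was below the level tested.

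**Figure D5:**
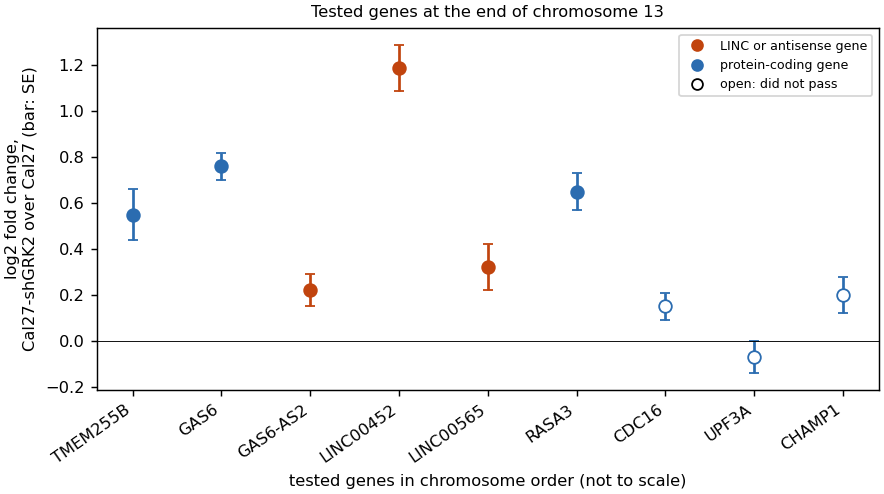
Log2 fold change with its SE (y axis, log2(FPKM + 1) scale, Cal27-shGRK2 over Cal27) of the tested genes at the end of chromosome 13 in their order along the chromosome (x axis, not to scale), noncoding genes in red and coding genes in blue, filled where the gene passed. The 6 genes from TMEM255B to RASA3 are filled and lie between 0.22 and 1.19, and the 3 genes after them are open.

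Of the 325 genes, 10 hold annotated microRNA hairpins on their own strand, 11 hairpins in all. Of the 10, 2 passed, both lower, where 29.6% of all genes tested passed. TTC28-AS1 fell by 0.40 on the log2 scale and holds the hairpin MIR3199-2, and GABPB1-AS1 fell by 0.34 and holds MIR4712, a call lost in 1 of the 5 fits that left out a library. The mature microRNAs were not measured, and their RefSeq sequences are shown, with the seed (bases 2 to 8) in capitals, to name what these transcripts could release.
hsa-miR-3199: aGGGACUGccuuaggagaaaguu
hsa-miR-4712-5p: uCCAGUACaggucucucauuuc
hsa-miR-4712-3p: aAUGAGAGaccuguacuguau
LINC00472, which holds MIR30A and MIR30C2, differed by -0.24 and did not pass.

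Noncoding genes with other kinds of names were also counted, from a list of 69, of which 48 were tested. Of these 48, 20 fell, 2 rose and 26 missed the threshold, where 14.6% of all genes tested fell and 15% rose. The 20 include the 10 small nucleolar RNA host genes counted below. Their median log2 change was -0.21, against -0.01 over all genes. Their falls outnumbered their rises, where 35 of the 325 genes rose and 43 fell. The largest fall was that of H19, an imprinted fetal RNA, with 0.756 and 0.720 FPKM in Cal27-shGRK2, against 19.4, 20.8 and 20.9 FPKM in Cal27 (log2 change -3.62 ± 0.08, limma's adjusted p = 1.7e-13). TP53TG1 fell by 1.16, MIR31HG, the host gene of miR-31, by 0.94, and PCAT7 by 0.78. HCP5, a gene of the HLA region, rose, with 22.4 and 22.5 FPKM in Cal27-shGRK2, against 9.83, 10.0 and 11.6 FPKM in Cal27 (log2 change 1.03), as did MIR155HG at 0.40, whose call was lost in 4 of the 5 fits that left out a library. Of the 17 small nucleolar RNA host genes (SNHG symbols) tested in this list, counted after their values were seen, 10 fell, 0 rose and 7 did not pass in limma (0 rose at an unadjusted p under 0.05), where 14.6% of all genes were lower. Of the 10, SNHG6, SNHG8, SNHG9 and SNHG16 lost their call in 2 to 4 of the 5 fits that left out a library. SNHG18 was below the level tested but went the other way. It stood at 0.773 and 0.896 FPKM in Cal27-shGRK2, against 0.0241, 0.0269 and 0.0425 FPKM in Cal27.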

How the data were processed

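Messenger RNA of Cal27-shGRK2 and Cal27 cells was sequenced with a stranded kit, per the labels' protocols. The submitters' processing notes name Cuffdiff 2.2.1, TopHat2 2.1.0 and Bowtie2 2.2.6, with the build hg38. Per the file headers, the authors deposited FPKM for every library and condition. The authors also deposited their own log2 fold changes, p-values and q-values, and a score (the test statistic). Values of 0 appear as 0.0001. Depth per library is unknown from FPKM, so no counting interval is given. Because levels were estimated, overlapping or similar genes can exchange signal.

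The authors' condition value equals the mean of the 3 deposited columns (relative tolerance 1e-04, genes of at least 1 FPKM) in 100% of genes for Cal27 and in 0.331% for Cal27-shGRK2, of which replicates 0 and 1 are identical. An additional Cal27-shGRK2 value was computed from that mean for 1 alternative only. For 70 of the 78 called genes it lay beyond all 3 Cal27 values on the called side. This was not counted over all genes, so it cannot be said whether 70 is many. In the 5 libraries alone, groups did not overlap for 53.3% of all genes tested.

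Where the mean over 5 libraries reached 1 FPKM, log2(FPKM + 1) was compared with limma 3.58.1 (R 4.3.3, trend and robust, 3 residual degrees of freedom), two-sided, with Benjamini-Hochberg adjustment over 13377 genes and a threshold of 0.05. Log2 changes are on that scale, which understates those of low genes, whereas folds are ratios of mean FPKM. The fit was tested on simulated data. Sense genes were matched by symbol, and positions come from GENCODE 29 and RefSeq. Motifs were counted with Python 3.11.15.

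The genes, the lists and the choices of what to name were made with earlier results of these data known. Named are the 12 largest rises and falls, the 12 highest levels, up to 12 pairs with both genes called and up to 6 with the antisense gene alone, pairs in opposite directions, and members of the lists, with exceptions stated. Alternatives were a pseudocount of 0.1, no filter, a minimum mean of 5 FPKM, scaling by median of ratios, a common total of 1000000, quantile normalization, limma without trend, a replicate block (the shared library as replicate 0 or 1), leaving out each library, and the computed additional library.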

Additional observations from a re-analysis of the deposited data

How the results depend on the processing

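The directions of all 78 called genes were the same under the 15 alternatives that tested them. Of the 41 named genes past the threshold, 31 passed in each alternative run. With a mean of at least 5 FPKM, which leaves fewer genes, 36 noncoding genes passed, 8 higher and 28 lower. Over all genes 3153 passed with that minimum, 1544 higher and 1609 lower. There 4 antisense and sense pairs passed in the same direction. When each library was left out in turn, all genes called ranged between 2600 and 4019 (3957 with all libraries), noncoding genes called between 46 and 81, those higher between 15 and 35, and sense genes called between 37 and 65. Genes near 0 changed sign without passing. MIF-AS1 was at 0.00 with median-of-ratios scaling, 0.05 with a common total, 0.01 with quantile normalization and between -0.09 and 0.09 with a library left out. LINC00116 was at 0.04 with a common total and between -0.05 and 0.02 with a library left out. LINC01578 was between -0.02 and 0.13 with a library left out and at -0.01 with the computed additional library. With the replicate block, MIF-AS1 was at 0.02 or 0.03 and LINC01578 at -0.02 with the shared library as replicate 0. The block gave 3960 genes called with the shared library as replicate 0 and 3481 as replicate 1, and 32 and 29 noncoding genes higher with 46 and 50 lower. The numbers are not known to pair the samples, and the deviations of same-numbered libraries correlated at 0.08 and 0.017. The cause of these shifts was not tested. With 2 distinct Cal27-shGRK2 libraries and unknown depth, small changes at low levels could not be resolved, and leaving out a Cal27-shGRK2 library leaves 1 that is assumed to vary like Cal27.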
